A study of Mus musculus with 4 samples.

Results

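The natriuretic peptide receptors and the core of cyclic GMP (cGMP) signalling were examined as 7 genes of 39179 in the deposited table. They are the receptors Npr1, Npr2 and Npr3, the soluble guanylate cyclase subunits Gucy1a3 and Gucy1b3, the kinase Prkg1 and the phosphodiesterase Pde5a. They were chosen by name, with their difference between genotypes in these libraries already known, so their values are given as a description and carry no test. All 7 were found once in the table, and all 7 passed the filter on low values, a mean normalized count of 10 or more over the 4 libraries. RNA came from the epididymal fat pad, the white fat attached to the epididymis of male mice. Of the 4 polyA RNA libraries, 2 were labelled Nck2 KO (genotype Nck2 mutant, named Nck2-/- in the design) and 2 WT (Nck2+/+ in the design). Both groups were on a mixed genetic background. The labels give neither age nor how the allele was made, and nothing says that replicates came from separate animals, so p-values measure only the spread between these libraries, which may be technical. Nck2 encodes an adaptor that couples phosphorylated receptors to the actin cytoskeleton.

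Natriuretic peptides from the heart and endothelium bind Npr1 and Npr2, which carry a guanylate cyclase domain inside the cell and make cGMP. Npr3 binds the same peptides but lacks the cyclase and removes them from the circulation, and it is therefore called the clearance receptor. Nitric oxide raises cGMP through a separate, soluble cyclase. cGMP activates the kinase encoded by Prkg1, and in human fat cells this kinase drives lipolysis, while in mice the abundance of the clearance receptor is known to limit that response. Pde5a degrades cGMP and is best known from smooth muscle.

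The bases before the start sites of Npr1 and Npr3 are shown because the cyclase receptor and the clearance receptor share their peptides, and the ratio between them is followed below. Each sequence covers 250 bases before the RefSeq start, read 5′ to 3′ on the gene's own strand (GRCm38.p6). Capitals mark a GC box (GGGCGG) or a CCAAT box (CCAAT), searched on both strands (CCGCCC and ATTGG are their reverse complements), and no marked matches overlapped.
Npr1, chr3:90465867-90466116, minus strand: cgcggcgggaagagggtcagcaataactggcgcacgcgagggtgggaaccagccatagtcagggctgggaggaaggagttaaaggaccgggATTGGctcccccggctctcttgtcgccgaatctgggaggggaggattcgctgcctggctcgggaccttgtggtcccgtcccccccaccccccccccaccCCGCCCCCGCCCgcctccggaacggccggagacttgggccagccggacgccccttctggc
Npr3, chr15:11907372-11907621, minus strand: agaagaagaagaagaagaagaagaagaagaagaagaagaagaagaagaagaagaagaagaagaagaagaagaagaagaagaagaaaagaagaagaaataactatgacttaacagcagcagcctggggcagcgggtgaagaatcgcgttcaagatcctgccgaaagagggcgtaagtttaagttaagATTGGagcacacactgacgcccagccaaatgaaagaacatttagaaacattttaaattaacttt
The Npr1 window was 70.4% G or C and held 2 GC boxes and 1 CCAAT box. The Npr3 window was 38.8% G or C, opened with a long run of the repeat AGA, and held 1 CCAAT box and no GC box. The median over 32851 mouse windows of this length was 52.4% G or C, and 32.7% of them held a GC box and 33.8% a CCAAT box. The full cAMP response element (TGACGTCA, in 1.55% of windows), the PPAR direct repeat (AGGTCA, any base, AGGTCA, in 0.0335%) and the C/EBP letters (TTGCNNCAA, in 1.74%) were searched in the same way and not matched in the windows of any of the 7 genes, nor was the TATA box (TATAAA, in 12.4%). The first 5 letters of the cAMP response element alone (TGACG, in 17.8% of windows) were matched 1 time in the Npr3 window, where they are not capitalised, and 1 time in that of Gucy1b3.

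The libraries held 33880872 to 37980391 reads assigned to genes in KO and 31831904 to 34056187 in WT. Values are normalized read counts, reads divided by the size factor of the library, and each log2 difference sets KO against WT after adding 1 to every normalized count. Nck2 itself was at 1076 and 947.3 in the KO libraries and at 1279 and 1667 in the WT libraries. Those totals over all exons do not check the genotype, since the labels do not say which part of the gene is altered; the log2 difference was -0.53 (limma adjusted p = 0.0509, or 0.0184 to 0.186 over the alternatives). Adipocyte genes were abundant in all 4 libraries, and the 20 genes of the mature adipocyte list took 6.45% and 6.90% of KO reads and 2.99% and 2.09% of WT reads. A list of 17 epididymis and male tract genes took 0.00181% and 0.00126% of KO reads and 3.4% and 4.32% of WT reads, and 11 and 8 of these genes were at 0 in the KO libraries. A list of 15 smooth muscle and pericyte genes, Myh11 and Acta2 among them, took 0.141% and 0.153% of KO reads and 1.44% and 1.90% of WT reads. Genes of both lists thus took a larger share of reads in each WT library than in either KO library. Genotype and the tissue make-up of the libraries therefore cannot be told apart in any difference between KO and WT given here. Fewer cells of a type and less RNA per cell cannot be told apart in bulk tissue either. The whole comparison could not be repeated without these libraries, since they are the only WT libraries.

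Npr3, the clearance receptor (ENSMUSG00000022206, GRCm38 chromosome 15, 11839896 to 11907287), was the most abundant of the 7 genes and ranked 79th by mean normalized count among 16710 tested genes. It was at 55961 and 67043 normalized counts in the KO libraries and at 10093 and 9240 in the WT libraries. Both KO libraries lay above both WT libraries, with means of 61502 ± 7840 in KO and 9666 ± 603 in WT (SD, n = 2 each). The ratio of the means was 6.36, and the log2 difference of 2.66 compares with a spread between replicates of 0.145 (SD on the log2 scale). With each library left out in turn the difference lay between 2.53 and 2.80. The mature adipocyte list had a mean log2 difference of 1.61 in the same comparison, and relative to that mean Npr3 was higher in KO by 1.06. The 20 genes of that list ranged from 0.43 (Cfd) to 2.92 (Lep, the gene of the hormone leptin). Only Lep lay above Npr3, and the next highest was Cidec at 2.06. These genes were identified after their values were seen. Set against Adipoq, the gene of the adipocyte hormone adiponectin, the level of Npr3 per kilobase was 0.0584 and 0.0692 of that of Adipoq in KO, and 0.0376 and 0.0458 in WT.

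Npr1, the cyclase receptor for the atrial and B-type peptides (ENSMUSG00000027931), spans 90450591 to 90465866 of chromosome 3. Its normalized counts were 4595 and 4165 in KO, against 2552 and 2724 in WT. The groups did not overlap. Means were 4380 ± 304 in KO and 2638 ± 122 in WT (SD, n = 2 each), a ratio of 1.66, and the log2 difference of 0.73 (spread between replicates 0.085) became -0.88 relative to the adipocyte list. Npr2, the cyclase receptor for the C-type peptide (ENSMUSG00000028469), spans 43631935 to 43651244 of chromosome 4. Its normalized counts were 3619 and 3580 in KO, against 2591 and 2317 in WT, again without overlap. Its means were 3600 ± 28.2 in KO and 2454 ± 194 in WT (SD, n = 2 each), a ratio of 1.47, and its log2 difference of 0.55 (spread 0.081) became -1.05 relative to the adipocyte list. The direction of both cyclase receptors thus depended on the scale, whereas that of Npr3 did not. That scaling lowers every log2 difference by 1.61 and puts the median of all genes at -1.62. Endothelial genes, a list of 14 led by Pecam1 and Cdh5, had a median log2 difference of 0.90, below the adipocyte mean. Of them 11 were higher and 0 lower (78.6% passing in limma, against 46.7% of all genes). Their part in the Npr1 and Npr2 values was not tested. Npr1 per kilobase was 0.349 and 0.266 of Cdh5 in KO and 0.375 and 0.527 in WT.

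**Figure D1:**
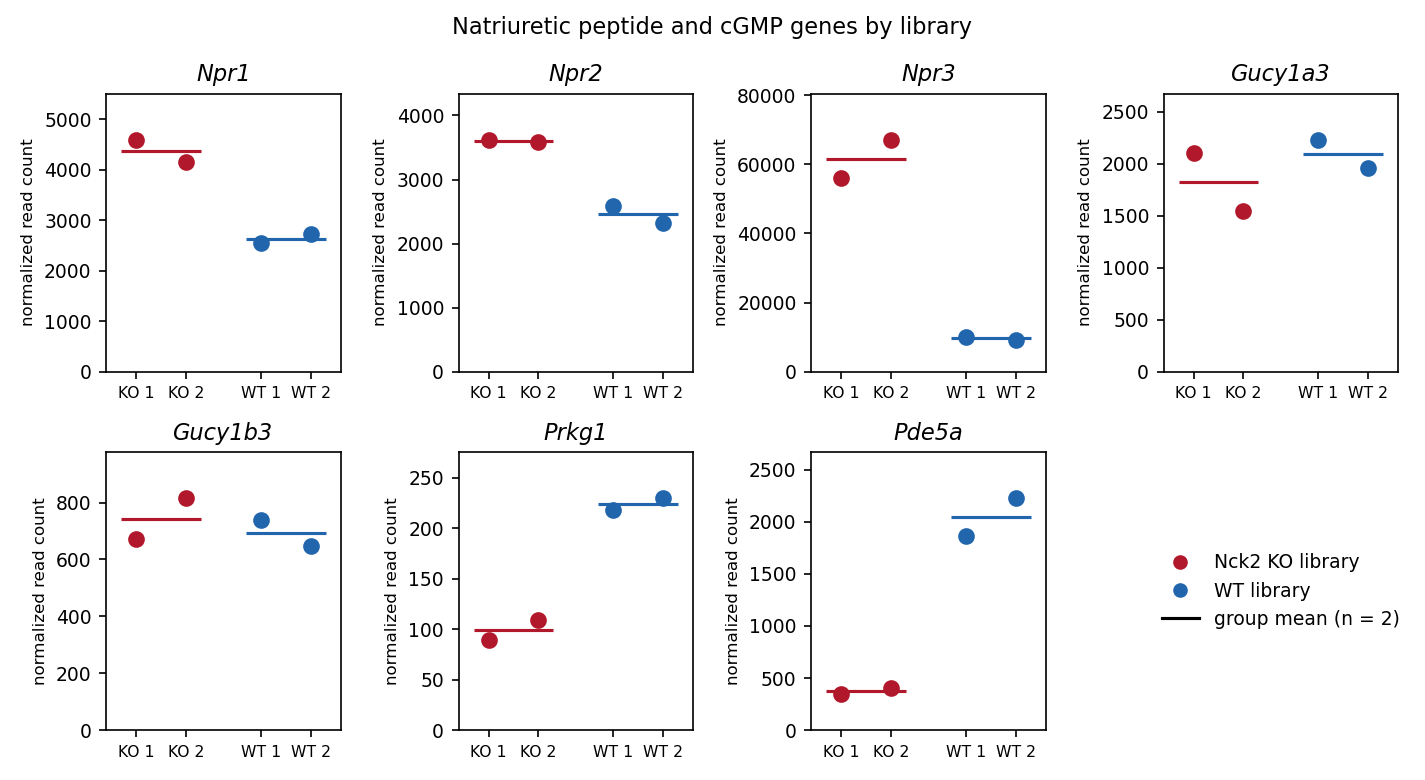
Normalized read counts of the 7 genes in each library (points) with group means (lines, n = 2 each). Axes start at 0. The KO libraries lie above the WT libraries for Npr1, Npr2 and Npr3 (relative to the adipocyte list Npr1 and Npr2 turn lower), below them for Prkg1 and Pde5a, and overlap them for Gucy1a3 and Gucy1b3.

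Within a library, the balance of cyclase receptor to clearance receptor does not depend on scaling between libraries. Per kilobase of annotated exon, the Npr1 level was 0.161 of the Npr3 level in KO replicate 1 (exact 95% binomial interval 0.157 to 0.166) and 0.122 in KO replicate 2 (0.118 to 0.126). It was 0.496 of the Npr3 level in WT replicate 1 (0.475 to 0.519) and 0.579 in WT replicate 2 (0.555 to 0.603). Only counting error enters these intervals, and without molecular identifiers a read is not an independent molecule. The ratio was thus lower in both KO libraries than in both WT libraries, and so was that of Npr2 to Npr3, at 0.130 and 0.107 in KO and 0.516 and 0.504 in WT. Between the cyclase receptors the groups overlapped, with a ratio of Npr1 to Npr2 of 1.24 and 1.14 in KO and 0.961 and 1.15 in WT. Npr3 made up 77.4% and 81.3% of the summed receptor level per kilobase in the KO libraries and 49.7% and 48.0% in the WT libraries. An exact permutation test of 2 libraries against 2 cannot give a two-sided p below 0.33, and none was run.

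**Figure D2:**
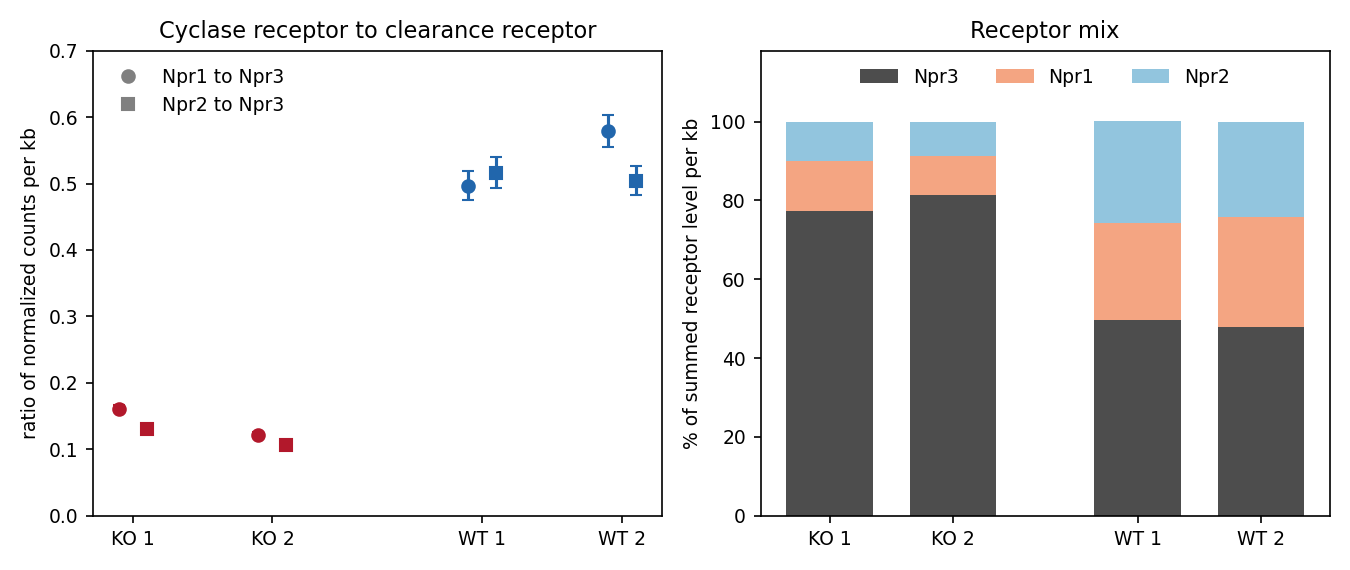
Left, ratio of each cyclase receptor to Npr3 (normalized counts per kilobase) in each library, with exact 95% intervals for counting error. Right, share of each receptor in the summed receptor level per kilobase. Npr1 to Npr3 is 0.161 and 0.122 in KO and 0.496 and 0.579 in WT, and the Npr3 share is 77.4% and 81.3% in KO and 49.7% and 48.0% in WT.

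The soluble guanylate cyclase, the receptor for nitric oxide, works as a dimer of an alpha and a beta subunit. Their genes lie next to each other on the minus strand of chromosome 3, Gucy1b3 (ENSMUSG00000028005) at 82032006 to 82074689 and Gucy1a3 (ENSMUSG00000033910) at 82092427 to 82145789, 17.7 kb apart. The current symbols are Gucy1b1 and Gucy1a1. Gucy1a3, the alpha subunit, was at 2105 and 1545 normalized counts in the KO libraries and at 2228 and 1958 in the WT libraries. Gucy1b3, the beta subunit, was at 671.8 and 814.6 in KO and at 737.7 and 646.6 in WT. The groups overlapped for both subunits. The log2 differences of -0.21 and 0.10 were below the spreads between replicates of 0.242 and 0.168, and each took the other sign without KO replicate 2 (0.01 and -0.04). The alpha and beta subunits moved in opposite directions between the KO libraries, so their ratio per kilobase was 1.77 in KO replicate 1 (exact 95% interval 1.62 to 1.92) and 1.07 in KO replicate 2 (0.977 to 1.17), against 1.70 and 1.71 in the WT libraries. Relative to the adipocyte list the differences were -1.82 and -1.51.

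Prkg1, the cGMP-dependent kinase (ENSMUSG00000052920, chromosome 19, 30564489 to 31765033), had the lowest level of the 7 per kilobase. It was at 89.01 and 109.4 normalized counts in the KO libraries, from 95 and 98 reads, and at 218.0 and 229.8 in the WT libraries, from 214 and 247 reads. The groups did not overlap. Means were 99.2 ± 14.4 in KO and 224 ± 8.32 in WT (SD, n = 2 each), and the log2 difference was -1.17 (spread 0.152). Pde5a, the phosphodiesterase that degrades cGMP (ENSMUSG00000053965), spans 122728947 to 122859374 of chromosome 3. Its normalized counts were 346.7 and 405.0 in KO, against 1859 and 2224 in WT, again without overlap. Its means were 376 ± 41.3 in KO and 2042 ± 258 in WT (SD, n = 2 each), a WT level 5.43 times that of KO, with a log2 difference of -2.44 (spread 0.171). Both genes stayed lower in KO under every scaling run, at -2.78 and -4.05 relative to the adipocyte list. Of the smooth muscle and pericyte list 9 of 15 genes fell and 1 rose, with a median of -2.85. That is 66.7% passing, against 46.7% of all genes. The list was uneven and reached -9.63 (Actg2). Pdgfrb, Rgs5, Notch3 and Abcc9 went the other way, at 0.33, 0.52, 0.35 and 0.11, and of these only Pdgfrb passed. These genes were identified after their values were seen. The smooth muscle myosin Myh11 was at 2282 and 3267 in KO and at 159714 and 229497 in WT, and the part of this tissue in the Prkg1 and Pde5a values was not tested. Per kilobase, Pde5a was 0.117 and 0.0958 of Myh11 in KO and 0.00900 and 0.00749 in WT, so Myh11 differed more between the groups than Pde5a did.

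Across the 7 genes, both KO libraries lay above both WT libraries for 3, below them for 2, and overlapped them for 2. Over all 16710 tested genes the groups did not overlap in 79.5%, with KO above in 38.9% and below in 40.6%, so a lack of overlap was the common case; by limma's adjusted p, 46.7% of them were called in either direction. The authors' deposited table gave log2 fold changes of 0.73, 0.55 and 2.66 for Npr1, Npr2 and Npr3, -0.20 and 0.10 for Gucy1a3 and Gucy1b3, and -1.16 and -2.43 for Prkg1 and Pde5a. Levels per kilobase in KO ran, from the top, Npr3 at 6550 ± 835, Npr1 at 916 ± 63.5, Npr2 at 771 ± 6.05, Gucy1a3 at 262 ± 56.8, Gucy1b3 at 189 ± 25.7, Pde5a at 38.2 ± 4.20 and Prkg1 at 9.13 ± 1.32 (SD, n = 2). In WT they ran Npr3 at 1030 ± 64.3, Npr1 at 552 ± 25.4, Npr2 at 526 ± 41.6, Gucy1a3 at 300 ± 27.4, Pde5a at 208 ± 26.2, Gucy1b3 at 176 ± 16.4 and Prkg1 at 20.6 ± 0.766 (SD, n = 2). The ranges of mean ± SD overlapped between the neighbours Gucy1a3 and Gucy1b3 in KO, and in WT between Npr1 and Npr2 and between Pde5a and Gucy1b3. Pde5a stood above Gucy1b3 in WT and below it in KO. An antisense gene on the opposite strand, Gm16048, covers 11.7% of the Npr1 exons, and it had at most 2.23 normalized counts in any library. Gm12473, also antisense, covers 5.7% of the Npr2 exons and had at most 1.12. Gm5144, antisense to Npr3, covers 3.42% of its exons, and no counts were available for it. Since the strand setting is not stated, these low counts do not show that the antisense genes were silent.

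**Figure D3:**
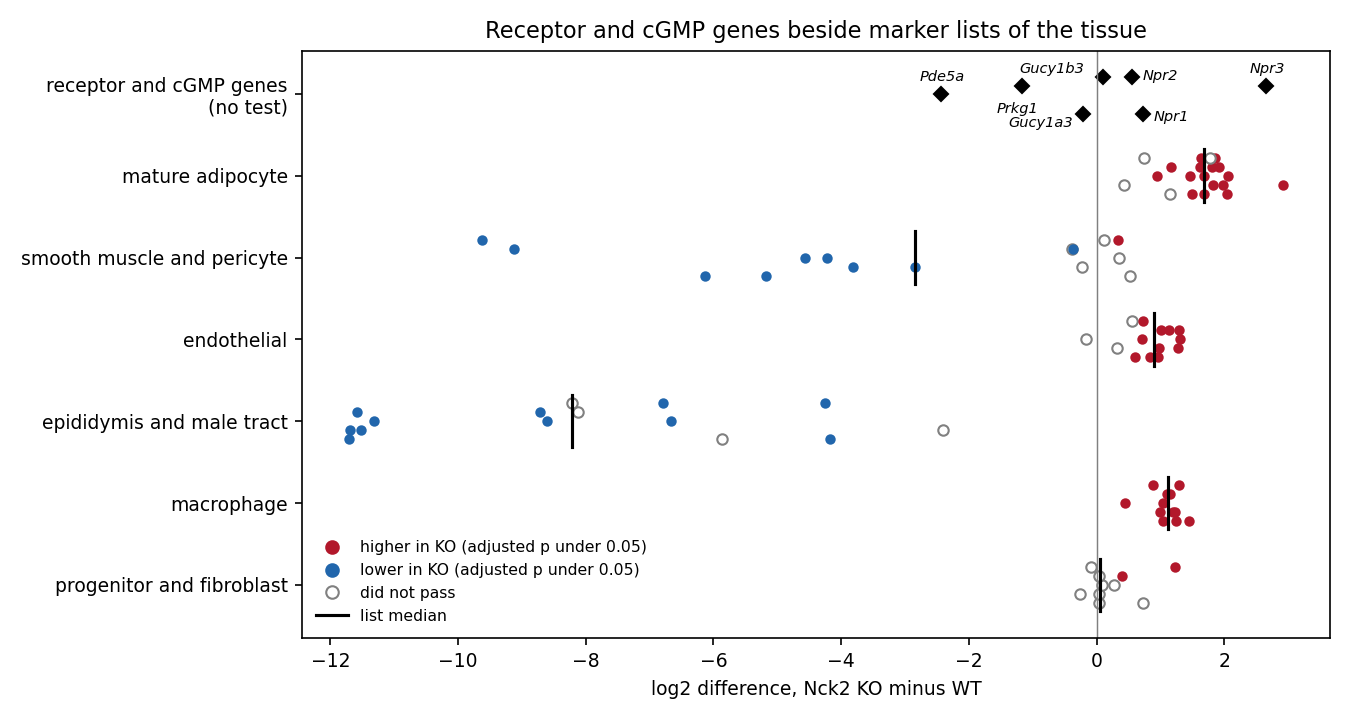
Log2 difference, KO minus WT, of the 7 genes (diamonds, no test) above the tested genes of 6 marker lists (circles; filled where limma's adjusted p was under 0.05; black line, list median). Npr3 lies at 2.66, beyond the adipocyte median of 1.68. Npr1 and Npr2 lie nearer the endothelial median of 0.90 and turn negative relative to the adipocyte list. Pde5a lies at -2.44. The smooth muscle and pericyte list, with a median of -2.85, spreads from -9.63 to 0.52.

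The remaining pathway was followed in 93 genes grouped by role, of which 72 were tested and 21 were too low. In limma over all 16710 genes, 24 of the 72 rose, 18 fell and 30 did not pass (33.3% higher and 25% lower), against 22.4% higher and 24.4% lower over all genes. The median log2 difference was 0.09, against -0.01 over all genes. Without WT replicate 1 the counts were 15 higher and 13 lower, and without WT replicate 2 they were 5 higher and 12 lower, in fits with fewer degrees of freedom. Of the 24 that rose, 5 (Lipe, Pnpla2, Aqp7, G0s2 and Prkar2b, identified after their values were seen) exceeded the adipocyte mean of 1.61, and the other 19 turn lower relative to that list. Of these 5, only Aqp7 passed with each library left out. Without WT replicate 2 the limma adjusted p was 0.0678 for Lipe, 0.0726 for Pnpla2, 0.0795 for G0s2 and 0.0709 for Prkar2b. Lipe also did not pass without KO replicate 2 (limma adjusted p = 0.0513), nor G0s2 without KO replicate 1 (0.0803) or KO replicate 2 (0.118).

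**Figure D4:**
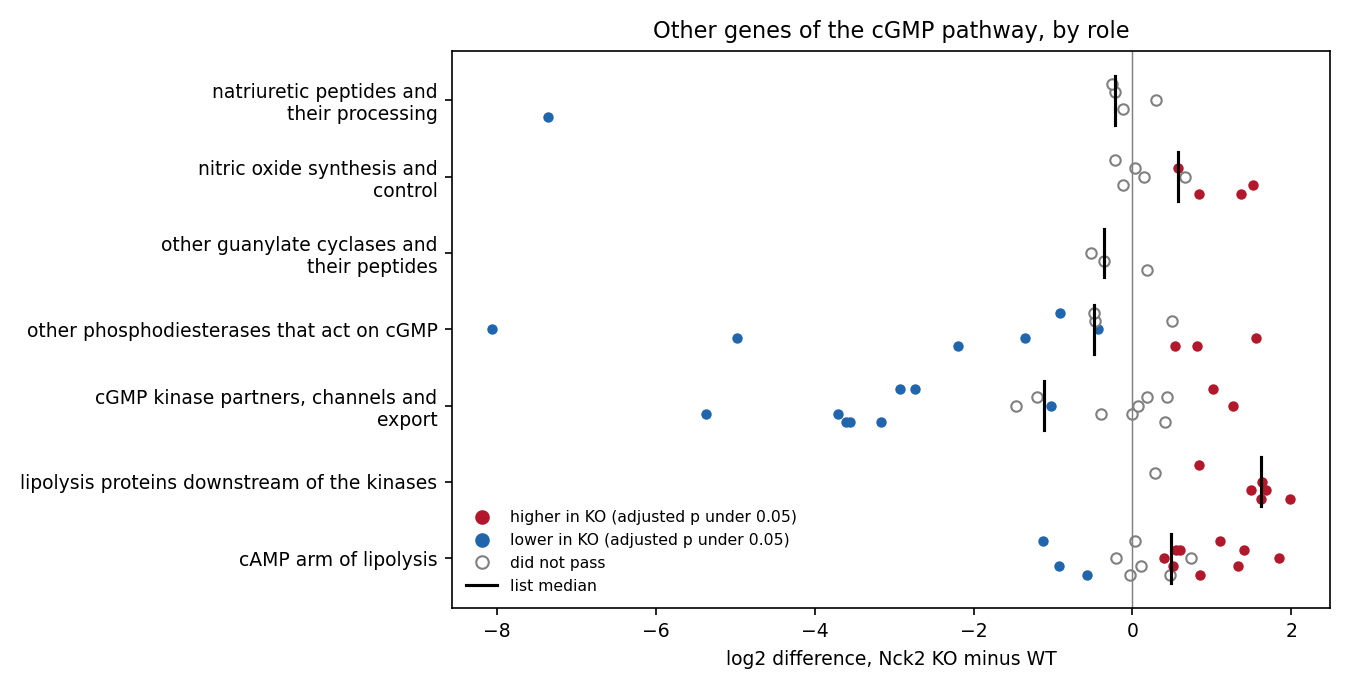
Log2 difference, KO minus WT, of the 72 tested pathway genes by role (circles; filled where limma's adjusted p was under 0.05; black line, list median). The list of kinase partners, channels and exporters has the lowest median, at -1.11, and lipolysis proteins have the highest, at 1.62. Of the 24 genes that rose, 19 turn lower relative to the adipocyte list.

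Among the ligands, Nppa and Nppb, which encode the atrial and B-type peptides, had 0 reads in all 4 libraries, which allows up to 3 reads in each library, or 0.0790 to 0.0942 RPM. Nppc, the C-type peptide, had 0 and 0 reads in KO and 2 and 9 in WT. Ostn, which encodes a peptide that binds Npr3, had 0 and 0 reads in KO and 2 and 0 in WT. Of the 5 tested genes of peptide processing, 0 rose and 1 fell (20% passing, against 46.7% of all genes). This was Corin, the protease that activates the atrial peptide in the heart, with 1 and 0 reads in KO and 206 and 260 in WT. Its WT level was 445 times that of KO (exact 95% interval 79.5 to 17600, reads summed over replicates and counting error only; limma adjusted p = 0.00124), and it passed with each library left out. The male tract list took 0.00181% and 0.00126% of KO reads and 3.4% and 4.32% of WT reads. For the smooth muscle and pericyte list the shares were 0.141% and 0.153% in KO and 1.44% and 1.90% in WT. The part of either tissue in the Corin value was not tested. The peptide-degrading proteases Mme and Ide did not pass, with log2 differences of 0.30 (limma adjusted p = 0.238) and -0.22 (limma adjusted p = 0.0969).

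On the nitric oxide side, 4 of 9 tested genes rose and 0 fell, or 44.4% passing, against 46.7% of all genes. All 4 rose by less than the adipocyte mean, and the list median was 0.57. Nos1, the neuronal synthase, was at 171.5 and 227.6 normalized counts in KO and at 72.34 and 80.01 in WT (log2 difference 1.37, SE 0.21, limma adjusted p = 0.00937). Nos2, the inducible synthase of macrophages, was at 387.0 and 476.5 in KO and at 189.5 and 117.2 in WT (1.52, SE 0.28, limma adjusted p = 0.0145). Macrophage genes rose in 12 of 12, against 22.4% of all genes, with a median of 1.13. Their part in the Nos2 value was not tested. Cygb, the globin cytoglobin that consumes nitric oxide, rose by 0.57 (SE 0.059, limma adjusted p = 0.00343). The fourth was Nos1ap, an adaptor of Nos1, identified after its value was seen, which did not pass with any 1 library left out (limma adjusted p = 0.0592 to 0.119). Nos3, the endothelial synthase, was at 2295 and 2561 in KO and at 1985 and 1184 in WT and did not pass (limma adjusted p = 0.106, or 0.0417 without WT replicate 1). Nos1 did not pass without WT replicate 1 (limma adjusted p = 0.0932) or without WT replicate 2 (0.0969), Nos2 without KO replicate 2 (0.0581) or WT replicate 2 (0.0844), and Cygb without WT replicate 2 (0.0505). Of 11 other guanylate cyclases, their peptides and activators, 3 reached the filter, Gucy1a2, Guca1a and Guca1b, and these had log2 differences of 0.18, -0.36 and -0.52 (limma adjusted p = 0.682, 0.518 and 0.316).

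Among 12 other tested genes named for phosphodiesterases that act on cGMP or for their subunits, 3 rose, 6 fell and 3 did not pass. That is 75% passing, against 46.7% of all genes, with a median of -0.48. Pde3b, which is inhibited by cGMP, degrades cAMP and carries the antilipolytic action of insulin in fat cells, was at 15684 and 17210 normalized counts in KO and at 9578 and 9194 in WT. It rose by 0.81 (SE 0.087, limma adjusted p = 0.00383), which is below the adipocyte mean, and did not pass without WT replicate 1 (limma adjusted p = 0.0501) or WT replicate 2 (0.0646). Per kilobase its level was 0.0169 and 0.0183 of that of Adipoq in KO and 0.0368 and 0.0469 in WT. Pde5a per kilobase was 0.0205 and 0.0218 of Pde3b in KO and 0.180 and 0.224 in WT. Pde1b, a phosphodiesterase activated by calcium and calmodulin, was at 682.1 and 668.4 in KO and at 260.8 and 201.9 in WT (log2 difference 1.55, just below the adipocyte mean, SE 0.16, limma adjusted p = 0.0032). Its relative Pde1c had 4 and 2 reads in KO and 999 and 1146 in WT, a WT level 341 times that of KO (exact 95% interval 157 to 931, reads summed over replicates and counting error only; limma adjusted p = 0.000567). Pde6a, known from photoreceptors, had 0 reads in both KO libraries and 27 and 36 in WT, so KO was at least 20.1-fold lower with 3 reads over both KO libraries taken as the floor (limma adjusted p = 0.00273). Without WT replicate 2, Pde6a fell under the filter and was not tested. The male tract list took 0.00181% and 0.00126% of KO reads and 3.4% and 4.32% of WT reads. The smooth muscle and pericyte list took 0.141% and 0.153% of KO reads and 1.44% and 1.90% of WT reads. The part of either tissue in the Pde1c and Pde6a values was not tested.

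Among partners of the cGMP kinase, channels and exporters, 8 of 18 tested genes were lower, 2 higher and 8 did not pass, with a median of -1.11. That is 55.6% passing, against 46.7% of all genes (22.4% higher and 24.4% lower). Mrvi1 encodes the protein through which the kinase restrains calcium release from stores. It was at 654.9 and 619.3 normalized counts in KO and at 7555 and 9063 in WT (log2 difference -3.70, SE 0.11, limma adjusted p = 0.000551). Kcnmb1, the beta subunit of the calcium-activated potassium channel of smooth muscle, was at 21.55 and 32.36 in KO and at 1007 and 1282 in WT (-5.37, SE 0.26, limma adjusted p = 0.000835). Rgs2, a G protein regulator phosphorylated by the kinase, was at 394.5 and 479.8 in KO and at 3062 and 3585 in WT (-2.93, SE 0.14, limma adjusted p = 0.000785). Prkg2, the second cGMP-dependent kinase, had 10 and 8 reads in KO and 89 and 95 in WT (-3.16, SE 0.26, limma adjusted p = 0.00214). These 4 genes and Pde1c and Pde1b passed with each library left out. Lrmp, a homologue of Mrvi1, and the channel Hcn2 were the genes that rose (identified after their values were seen), both by less than the adipocyte mean. Hcn2, with a limma adjusted p of 0.0486, did not pass without KO replicate 2 (0.155), WT replicate 1 (0.133) or WT replicate 2 (0.246). The genes of the smooth muscle and pericyte list took 0.141% and 0.153% of KO reads and 1.44% and 1.90% of WT reads. The share of smooth muscle RNA in the libraries was not estimated, and its part in these differences was not tested.

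Of 7 genes listed for lipolysis, whatever the direction of their effect on it, 6 rose and 0 fell. That is 85.7% passing, against 46.7% of all genes. Their median was 1.62, and 4 of the 6 exceeded the adipocyte mean. Aqp7, the glycerol channel of fat cells, was at 8519 and 8909 normalized counts in KO and at 2315 and 2117 in WT (log2 difference 1.98, SE 0.076, limma adjusted p = 0.000644). Pnpla2, the first triglyceride lipase, rose by 1.63 (SE 0.20, limma adjusted p = 0.00519) and Plin1, the lipid droplet coat protein, by 1.49 (SE 0.20, limma adjusted p = 0.0061). Without WT replicate 2, Pnpla2 and Plin1 did not pass (limma adjusted p = 0.0726 and 0.0523). Lipe, Plin1, Pnpla2 and Aqp7 are also on the adipocyte list, so these medians are not independent. In the cAMP arm 9 of 18 genes rose and 3 fell (66.7% passing, against 46.7% of all genes), with a median of 0.49. Of the 9 only Prkar2b exceeded the adipocyte mean. Adcy3 and Adcy4, adenylate cyclases, rose by 1.4 (SE 0.096, limma adjusted p = 0.00148) and 1.10 (SE 0.066, limma adjusted p = 0.00118), both less than the adipocyte mean. Prkacb, a catalytic subunit of the cAMP kinase, fell by 1.13 (SE 0.10, limma adjusted p = 0.0027). Adcy3, Adcy4, Prkacb and Aqp7 passed with each library left out.

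The genes whose pattern over the 4 libraries was most like that of each of the 7 were sought among 14031 genes averaging at least 50 normalized counts, by the root mean square difference of log2 levels centred on each gene's mean. For Npr3 they were Prss27, a serine protease, Sncg, a synuclein abundant in fat cells, and Pamr1, at 0.093, 0.103 and 0.104. Prss27 was low, at 83.39 and 98.19 normalized counts in KO and at 12.23 and 11.16 in WT, so its likeness rests on few WT reads. Sncg was at 37891 and 41966 normalized counts in KO and at 7400 and 6938 in WT. No gene came closer to Npr3 than 0.093, while each of the other 6 had a gene within 0.027. For Npr1 they were Vav1, Ninj1 and Dpp7 (0.020, 0.020 and 0.027), and for Npr2 they were Rmdn2, Rps6ka1 and Wdsub1 (0.006, 0.007 and 0.011). For Gucy1a3 they were Efcab7, Kansl1l and Nostrin (0.019, 0.022 and 0.026), and for Gucy1b3 they included Tusc1 and Pars2 (0.001 and 0.016). For Prkg1 they were Sult5a1, Zwilch and Penk (0.025, 0.030 and 0.034). For Pde5a they were Wdr25, Gata2 and Mad1l1 (0.027, 0.036 and 0.039), of which Gata2, a transcription factor that restrains adipocyte differentiation, was at 482.5 and 557.9 in KO and at 2425 and 2996 in WT. Likeness over 4 libraries is a description, and these genes share the libraries with the members.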

How the data were processed

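For 39179 genes the deposited signal is a normalized count, reads over a size factor for each library. The authors' deposited comparison of KO with WT holds a log2 fold change, a p-value and a test statistic, which is a score. Per the submitters' processing notes, DESeq2 1.4.5, HTSeq 0.5.3, TopHat2 2.0.10 and CASAVA 1.8 were used, with GRCm38. The sources used here do not state a strand setting, so a gene and its antisense partner cannot be told apart. Per the labels' protocols, Illumina TruSeq RNA kits were used.

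Whole reads were recovered from each column (100% of values whole within 0.01) and the size factors were 1.0673 and 0.8962 for KO and 0.9815 and 1.0748 for WT. Replicates differed beyond sampling noise (chi-square per degree of freedom 36.8 in KO and 52.3 in WT). All 4 libraries entered 1 limma fit (limma 3.58.1, R 4.3.3, variance trend on) of log2 values with a pseudocount of 1, for genes averaging at least 10. A pseudocount understates the change of low genes. P-values were adjusted by Benjamini-Hochberg over 16710 genes, with a threshold of 0.05. Alternatives were pseudocounts of 0.5 and 5, other filters and scalings, count tests of the recovered reads (DESeq2 1.42.0, edgeR 4.0.16), the replicate number as a block, and each library left out. Positions and exon lengths came from GENCODE M21 (37607 genes matched), and sequences from RefSeq (GRCm38.p6), with Gucy1a3 and Gucy1b3 matched under their current symbols.

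The 7 genes and all lists were chosen with earlier results of these data known. Genes named are the 7, the 3 smallest p-values of each role list, the 3 most alike genes of each of the 7 (1 of those of Gucy1b3 is not reported here), fixed checks of target and tissue (Nck2, Adipoq, Myh11 and Crisp1), and fixed ligands and partners, apart from those said to be identified after their values were seen and from Pecam1, Cdh5 and Acta2, named as examples of their marker lists. Crisp1, made in the epididymis, had 107.8 and 93.73 normalized counts in KO and 343811 and 334537 in WT. A further list of 10 progenitor and fibroblast genes had 2 higher and 0 lower (20% passing, against 46.7% of all genes).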

Additional observations from a re-analysis of the deposited data

How the results depend on the processing

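Under pseudocounts of 0.5 and 5, TMM and upper-quartile scaling, edgeR, DESeq2 and the replicate block, the log2 differences of the 7 genes moved by less than their spread between replicates. Expressed relative to the mature adipocyte list they became -0.88 (Npr1), -1.05 (Npr2), 1.06 (Npr3), -1.82 (Gucy1a3), -1.51 (Gucy1b3), -2.78 (Prkg1) and -4.05 (Pde5a), because that scaling lowers every difference by 1.61. With each library left out, the ranges were 0.66 to 0.80, 0.47 to 0.64, 2.53 to 2.80, -0.43 to 0.01, -0.04 to 0.24, -1.32 to -1.03 and -2.57 to -2.31 in the same order. The counts of the 7 genes with KO above and below WT ranged from 3 to 4 and from 2 to 3. Over all genes, 3735 rose and 4074 fell, with 650 to 2849 and 1163 to 3477 when a library was left out (omitting WT replicate 2 gave 650 and 1163, WT replicate 1 gave 1406 and 1765, and KO replicate 2 gave 2425 and 3255). For the pathway genes, 24 and 18 became 5 to 23 and 12 to 18. Without length correction the Npr1 to Npr3 ratio was 0.0821 and 0.0621 in KO and 0.253 and 0.295 in WT, and with the longest transcript as length it was 0.139 and 0.105 in KO and 0.429 and 0.5 in WT. These were lower in both KO libraries as well. Gucy1a2, at 0.18, ranged from -0.11 to 0.46 over the omitted libraries and changed sign without KO replicate 2 (-0.11) and WT replicate 1 (-0.03), and the cause was not tested. With the replicate number as a block, 2737 genes rose and 3339 fell, and 22 and 16 of the pathway genes. The correlation of same-numbered deviations was -0.00904. With 2 libraries per group this cannot settle whether the numbers pair the samples, and the labels do not say. Of the 7 genes Prkg1 is limited most by depth, with 95 to 247 reads per library. Nck2, at a limma adjusted p of 0.0509, passed with a pseudocount of 5 (0.0495) and in DESeq2 (0.0184).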

Other observations

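Guca2b, which encodes uroguanylin, a peptide activator of the intestinal guanylate cyclase, missed the filter and was identified after its values were seen. It had 16 and 20 reads in KO and 1 and 0 in WT. The cyclase it activates, Gucy2c, had 1 and 1 reads in KO and 5 and 7 in WT.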
